A study of Drosophila melanogaster with 5 samples.

Results

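CG4025 and Coa8 are short protein-coding genes on the X chromosome of Drosophila melanogaster at which several binding peaks of MSL2 were listed close together. Of 709 peaks in the list, 6 had their midpoint inside 1 of these 2 genes or within 1 kb of it, 3 at each gene. The genes were chosen by the number of their peaks, which was known beforehand, so the number, spacing and order of the 6 peaks are given as a description, with no test. The data came from CUT&RUN, in which a nuclease tethered to an antibody cuts out the DNA around a bound protein. The cells were S2 cells, an established Drosophila line with a male-like state of dosage compensation, grown to near confluence with no other treatment named. Permeabilized cells bound to beads received a rabbit serum raised against MSL2 (3 libraries) or, as the protocol describes it, a pre-immune serum (2 libraries, whose target the labels abbreviate as PPI). The authors deposited 1 list of peaks, called on anti-MSL2 tags (aligned reads) against control tags, and all 709 peaks lay on X.

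Males of Drosophila have a single X, and the MSL (male-specific lethal) complex acts on it to raise transcription of its genes. MSL2 is the subunit made in males, and together with MSL1 it gives the complex its contact with particular entry sites on X, many of which hold GA-rich sequence that the factor CLAMP also binds. From such sites the complex spreads to transcribed genes nearby, where the acetyltransferase MOF modifies histone H4. The noncoding RNAs roX1 and roX2 are parts of the complex, and the genes that encode them are themselves entry sites.

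Coa8 (gene 31148, also listed as Apop1) spans X 1880282 to 1881432 in Release 6 of the genome (dm6), a length of 1151 bp. In mammals the protein COA8, or APOPT1, is a mitochondrial factor for the assembly of cytochrome c oxidase, complex IV of the respiratory chain. CG4025 (gene 31177) spans X 2076966 to 2078455, a length of 1490 bp. The gene table gives DRAM among its synonyms, a name that in mammals belongs to membrane proteins of lysosomes that modulate autophagy. The genes lie 195533 bp apart, with 36 whole genes and 16 peaks between them. The gene table gives no strand and no exons, so positions below are counted from the end of each gene with the lower coordinate, and transcription starts, exons and introns were not told apart.

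Coa8 held 2 midpoints, and the third peak of its group lay in the next gene. The first peak covered X 1879635 to 1879785. Its midpoint was 572 bp outside Coa8 and inside CG14818 (gene 31147, a gene of 756 bp), 64 bp from the end of that gene that faces Coa8. The second peak covered X 1880513 to 1880663, with its midpoint 306 bp into Coa8, at 26.6% of its length. The third covered X 1880989 to 1881139, with its midpoint at 782 bp or 67.9% of the length. Both inner peaks lay wholly within Coa8 and overlapped no other annotated gene. Neither was at an end of the gene: the nearer end was 306 bp away for the one and 368 bp away for the other.

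CG4025 held all 3 of its midpoints. The first peak, at X 2076902 to 2077052, straddled the lower end of the gene: its midpoint was 11 bp inside, and 64 of its bases lay outside. The second covered X 2077336 to 2077486, with its midpoint at 445 bp or 29.9% of the length. The third covered X 2078230 to 2078380, with its midpoint at 1339 bp or 89.9% of the length, 150 bp from the upper end. CG4025 thus had a peak at or near each end and 1 between them, unlike Coa8, whose inner peaks stood away from both ends.

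**Figure D1:**
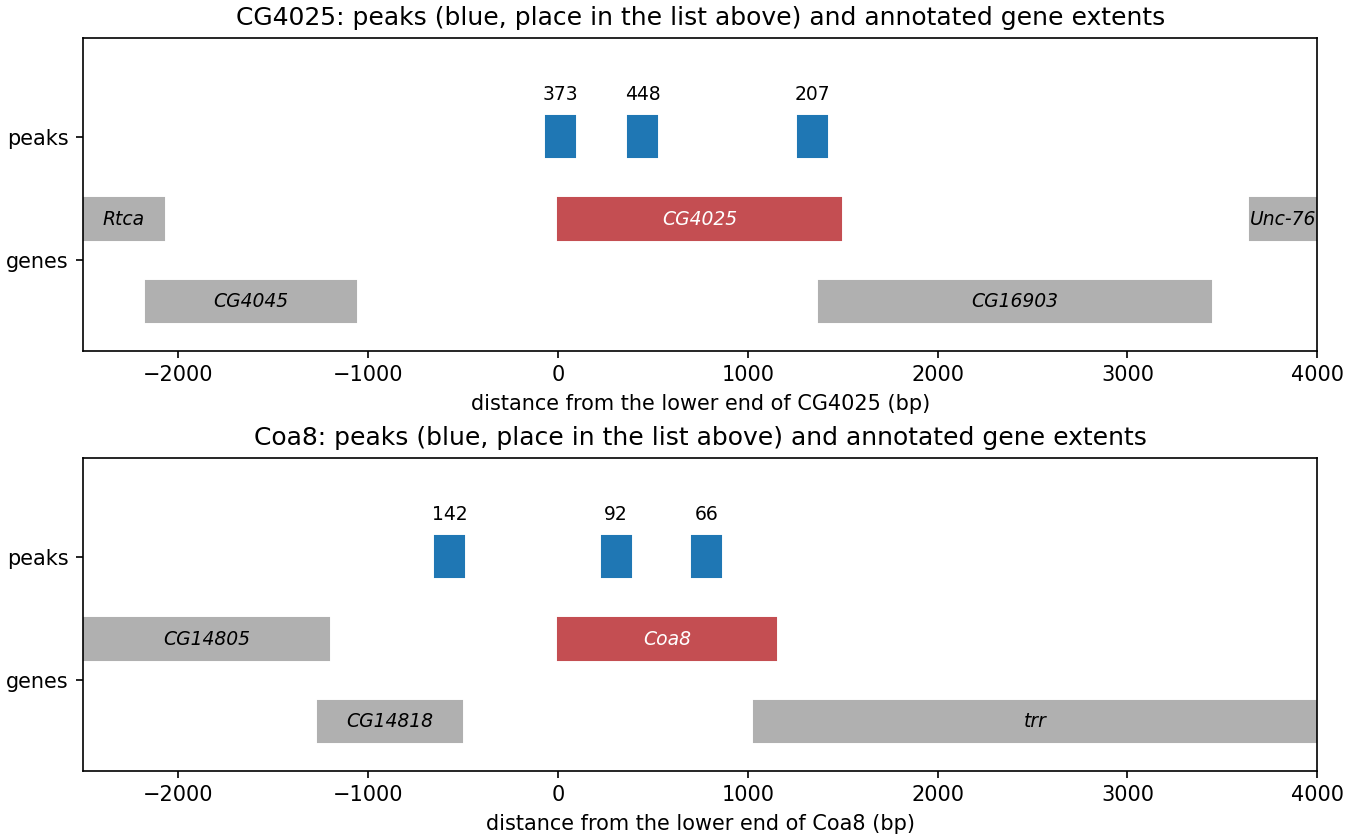
Peaks (blue) and annotated gene extents (the named gene red, others grey) around CG4025 and Coa8, by distance in bp from the lower end of each gene; the number above each peak is its place in the list. CG4025 holds all 3 of its midpoints, while at Coa8 2 are inside and 1 is in CG14818.

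Each member overlaps the gene on its upper side. CG16903 (gene 31178) overlaps CG4025 by 113 bp at its upper end, and the third peak of CG4025 ran 38 bp into it, with its midpoint 38 bp short of it. The other neighbour of CG4025, CG4045 (gene 31176), for which the table lists METTL1, the name of a tRNA methyltransferase, ends 1065 bp before it and had no midpoint inside or within 1 kb. The histone H3 lysine 4 methyltransferase gene trr (gene 31149) overlaps Coa8 by 120 bp. No midpoint lay inside trr, although it is 8638 bp long, and the third peak of the Coa8 group was 249 bp from it. CG16903 likewise held no midpoint. Both trr and CG16903 had 2 midpoints within 1 kb, in each case peaks of the member that the gene overlaps. A peak near such an overlap of genes cannot be given to 1 of them from these positions.

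Within each group the spacing was uneven and ran in opposite order. The midpoints at CG4025 were 434 and then 894 bp apart, a span of 1328 bp. Those at Coa8 were 878 and then 476 bp apart, a span of 1354 bp. The authors set a minimum of 300 bp between peaks, and the smallest distance in the whole list was 286 bp. Adjacent midpoints over the list were a median of 7477 bp apart (708 distances), and 31 distances (4.38%) were at most 500 bp. Of the 2 spacings at each gene, 1 was among these. The next peaks on either side were much further off: 6322 and 11675 bp from the outer midpoints at CG4025, and 6037 and 12739 bp from those at Coa8. These outer distances were ordinary for the list, in which 38.6% of adjacent distances were at least as long as the 11675 bp beyond CG4025 and 57.8% at least as long as the 6037 bp before Coa8. The member farthest outside its gene was the peak in CG14818 at 572 bp, and the nearest peak beyond the limit was 6311 bp from CG4025.

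The list does not run by position, and its header does not say what its order or the number in each peak's name stands for. The 3 peaks at Coa8 were early, at places 142, 92 and 66 from the lower to the upper coordinate. Their names carried the numbers 226, 152 and 117. The 3 peaks at CG4025 came later, at places 373, 448 and 207, with the numbers 523, 671 and 289. The groups did not overlap in place: the latest of Coa8 (142) came before the earliest of CG4025 (207). With a median place of 355 over the list, all 3 peaks at Coa8 and 1 of those at CG4025 were in the earlier part. In both groups the earliest place belonged to the peak with the highest coordinate, which was the one closest to the overlapping neighbour, CG16903 or trr. Place and number gave the same order within each group.

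Few X genes as short as these held even 1 midpoint. Of the 2705 annotated X genes, 412 (15.2%) held 1 or more, 130 (4.81%) held 2 or more and 40 (1.48%) held 3 or more. Among the 1045 genes no longer than CG4025, 25 (2.39%) held 1 or more, 3 (0.287%) held 2 or more and 2 (0.191%) held 3 or more. Some of the 1045, such as mir-980 (98 bp), are shorter than the smallest distance between midpoints (286 bp) and could not hold 2. They lower the shares for 2 or more and 3 or more. The 3 short genes with 2 or more were CG4025, Coa8 and roX2 (lncRNA:roX2, gene 3772415, 1368 bp), which held 3. The other 22 short genes with a peak held 1 each. Since the rule chose both members by this count, nothing is read from their standing against the background.

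**Figure D2:**
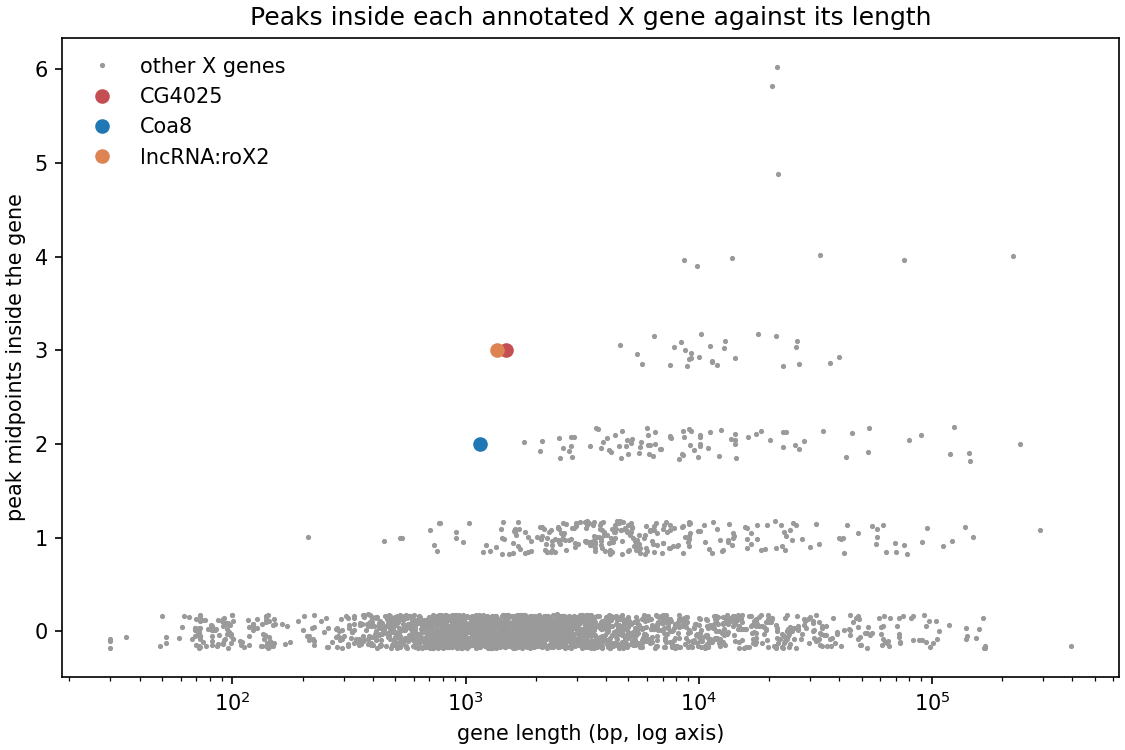
Number of peak midpoints inside each annotated X gene (vertical axis, points jittered for the other genes) against gene length in bp on a log axis. CG4025 and roX2 at 3 midpoints and Coa8 at 2 lie to the left of every other gene with as many; the next shortest gene with 2 is 1781 bp long and the next with 3 is 4577 bp long.

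The next shortest gene with 2 midpoints was asRNA:CR45009, at 1781 bp, and the next with 3 was dx, at 4577 bp, a gene of Notch signalling known as deltex. Both were picked after their values were seen. Genes with 2 or more midpoints had a median length of 9203 bp and a median density of 0.265 midpoints per kb. CG4025 had 2.01 midpoints per kb and ranked 4 among all X genes, and Coa8 had 1.74 per kb and ranked 7, behind short genes of 1 midpoint as well. Both were chosen as short genes with several peaks, so high ranks were built in and nothing is read from them. Among genes with 2 or more midpoints, 2 exceeded Coa8 in density, CG4025 and roX2 (2.19 per kb). Peaks covered 389 bp of CG4025 (26.1%) and 302 bp of Coa8 (26.2%). The median over X genes with a midpoint was 3.45%. For genes of this size 1 peak of 151 bp is already a large share, so both measures are high wherever a short gene holds a peak.

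roX2 is the X gene most like the members in length and count, and its peaks differed in place. They covered X 11579016 to 11579166, X 11579646 to 11579796 and X 11580217 to 11580367, with midpoints 26, 656 and 1227 bp from the lower end. As at CG4025, the first straddled the lower end, and as at both members the earliest place went to the peak with the highest coordinate. Its places were 20, 30 and 3, all before the earliest at Coa8 (66) and at CG4025 (207). The order was not tested, since the 3 genes were chosen for their peaks.

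A count with 1 kb on either side added genes whose peaks lie beside them. Of the 1045 short genes, 161 (15.4%) had 1 or more midpoints inside or within 1 kb and 5 (0.478%) had 3. Of all X genes, 829 (30.6%) had 1 or more and 74 (2.74%) had 3 or more. The 5 short genes were CG4025, Coa8, roX2, and SLIRP1 and anox, which the table gives with the same extent of 1361 bp and which share their peaks. All 3 midpoints lay outside the extent, 20 bp below it and 72 and 418 bp above it, at places 101, 254 and 255. Here the earliest place went to the peak with the lowest coordinate, unlike at CG4025, Coa8 and roX2. The first of these peaks straddled the lower end and overlapped the extent by 56 bp, the second overlapped it by 4 bp and the third by 0 bp.

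Runs of 3 consecutive peaks as tight as those at the members were few. Of 707 such runs in the list, 10 (1.41%) had a span of at most 1354 bp, the span at Coa8, and the median span was 22964 bp. This limit is the longer of the members' own spans, so both members are among the 10 by construction and nothing is read from that. The run at Coa8 is the longest of the 10 for the same reason. That at CG4025 was among the 3 longest, and the shortest was 811 bp, in rudhira. At CG4025 and roX2 the run took up most of the gene. The other 4 genes that held a whole run were 5435 to 20563 bp long: su(sable), which encodes an RNA-binding protein, Trf4-1, a noncanonical poly(A) polymerase, CG3198 and rudhira. The run at Coa8 was shared between 2 genes, and the runs at wcy and Dora lay partly outside genes. The middle place of the Coa8 run (92) was the second earliest of the 10, after roX2 (20), and that of CG4025 (373) was the second latest, before su(sable) (451) and close to Dora (368) and wcy (364). Each of the 10 runs had at least 1 peak among the first 354 of the list, and 6 had all 3 peaks there. Coa8 was among these 6, and CG4025 was not.

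**Figure D3:**
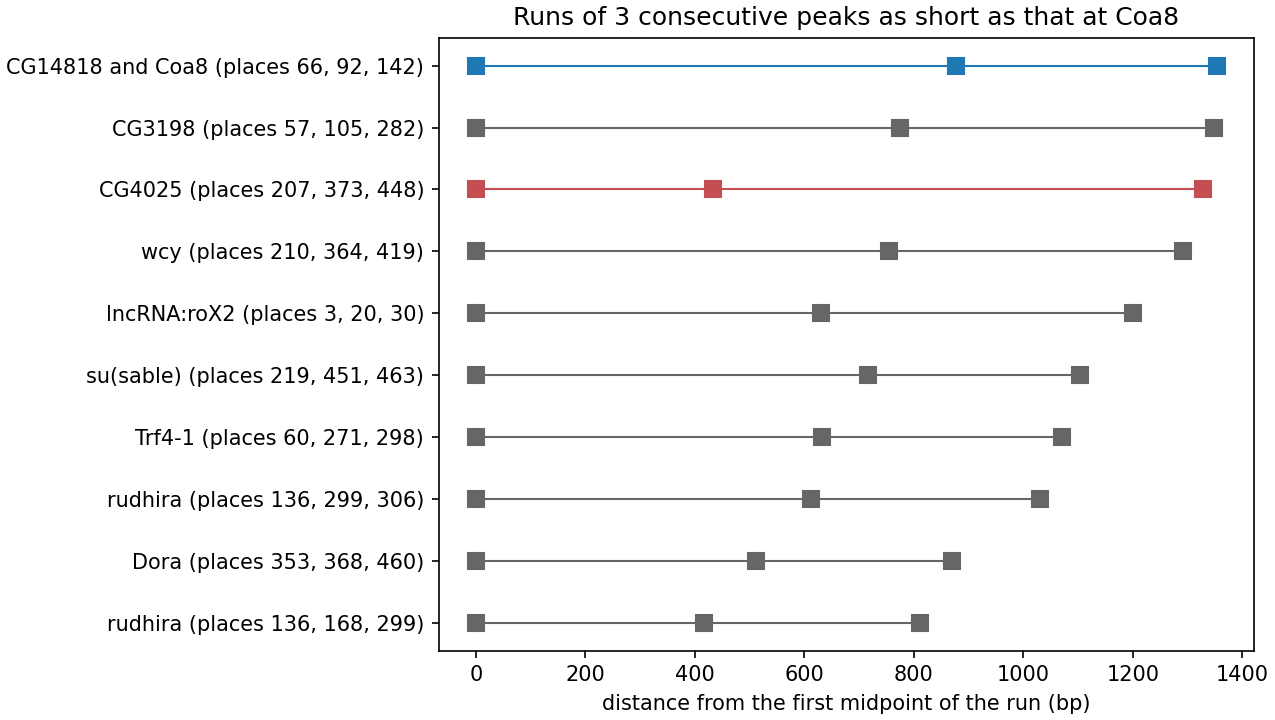
The 10 runs of 3 consecutive peaks that span at most 1354 bp, each midpoint drawn by its distance in bp from the first of its run (Coa8 blue, CG4025 red, others grey); places in brackets are sorted, not in positional order. Rudhira appears with 2 overlapping runs, and the spans go from 811 bp to the 1354 bp at Coa8.

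The surroundings of both genes were rich in peaks. Besides its own, Coa8 had 14 peaks within 50 kb, 5 on the lower side and 9 on the upper, and CG4025 had 11, 5 and 6 on the sides. The median over all X genes was 4, with quartiles of 1 and 6, and 0.924% of X genes had more than 14 and 4.44% had more than 11. The 1 Mb stretches of X that hold the genes had 47 peaks (1 to 2 Mb) and 53 peaks (2 to 3 Mb), against a median of 29 over 23 whole stretches. The counts within 50 kb leave out the peaks of the members, while the counts per 1 Mb include them. Both genes lie in the same part of X and share its density, so they are not independent cases.

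Around Coa8, 10 of the 25 other genes that reach into the window (40.0%) held a midpoint, against the 15.2% of all X genes. Of these 10, 1 (a gene that extends past the lower edge) did so only beyond the window. Another, CG14818, held only the peak counted for Coa8, so the share is partly drawn from the peaks that chose the member. The earliest place in the neighbourhood belonged to arm, which encodes the beta-catenin of flies and acts in Wnt signalling and cell adhesion. arm held 3 midpoints in 9246 bp (0.324 per kb), at X 1893728 to 1893878 (place 27), X 1899615 to 1899765 (place 237) and X 1900217 to 1900367 (place 230). The first of these was 12371 bp from Coa8. It was the only neighbouring peak to come before all 3 of Coa8. Edem1, of the degradation of misfolded proteins from the endoplasmic reticulum, held 1 at place 67, directly after the earliest of Coa8. All the other neighbours came after the latest of Coa8 (142), and over the 14 the median place was 234.5, from 27 to 431.

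On the lower side of Coa8, the nearest peak lay 108 bp outside Pgam5, a mitochondrial phosphatase gene, at place 304 and 6609 bp from Coa8. MED18 (a subunit of Mediator, 979 bp) held 1 midpoint at place 163, and Gcna, related to a nuclear protein of mammalian germ cells, held 1 at place 173. deltaCOP, a coat protein of vesicles between Golgi and endoplasmic reticulum, held 1 at place 403, and a peak at place 293 lay 47 bp from Lamtor5, of the Ragulator complex on lysosomes. On the upper side, asRNA:CR43864 held 1 at place 232, Ocrl, a phosphoinositide phosphatase gene, held 2 at places 160 and 319, and CG11596 held 2 at places 341 and 431. Of the 9 other short genes in this window, 2 held a midpoint: CG14818, through the peak counted for Coa8, and MED18. The share over all short X genes was 2.39%, and nothing is read from so small a count. In density, MED18 had 1.02 midpoints per kb, CG11596 had 0.705 and Ocrl had 0.440, each below the 1.74 per kb of Coa8. CG14818 had 1.32 per kb, through the peak counted for Coa8. Coa8 was chosen for its peaks, so this order was not tested.

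Around CG4025, 7 of the 21 other genes that reach into the window (33.3%) held a midpoint, against the 15.2% of all X genes. The shortest of these 7 was CG4281 (2830 bp), above the median X gene length of 2063 bp, and length was not taken into account. The peaks of CG4025 were not the earliest of their neighbourhood: 4 of the 11 neighbouring peaks came before its earliest (207), and 7 came before its latest (448). Those 4 were in CG4281 (place 95, 14485 bp from CG4025), in ph-d (place 115), in CG4313 (place 155) and 236 bp from ph-d (place 162). ph-d encodes polyhomeotic-distal, a subunit of a Polycomb repressive complex, and its 2 peaks were 43491 and 45067 bp from CG4025. The 11 places had a median of 302 and went from 95 to 595.

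The nearest neighbours of CG4025 were later or close to it in the list. The peak in CG4199 (place 365) was 6311 bp away on the lower side, and the peak in Unc-76 (place 452) 11525 bp away on the upper side. Unc-76 is a gene of axonal transport and is 13339 bp long. A further peak lay 21 bp from CG14054, at place 280. csw, the gene of the phosphatase corkscrew in receptor tyrosine kinase signalling, held 3 midpoints over 21468 bp, at places 585, 302 and 595, a density of 0.140 per kb. Actn, the alpha-actinin gene, had 1 of its midpoints in the window, at place 543. None (0) of the 8 other short genes in this window held a midpoint, against 2.39% of all short X genes, so nothing is read from this count. The other peaks inside genes in this window were in genes of 2830 bp (CG4281) or longer.

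**Figure D4:**
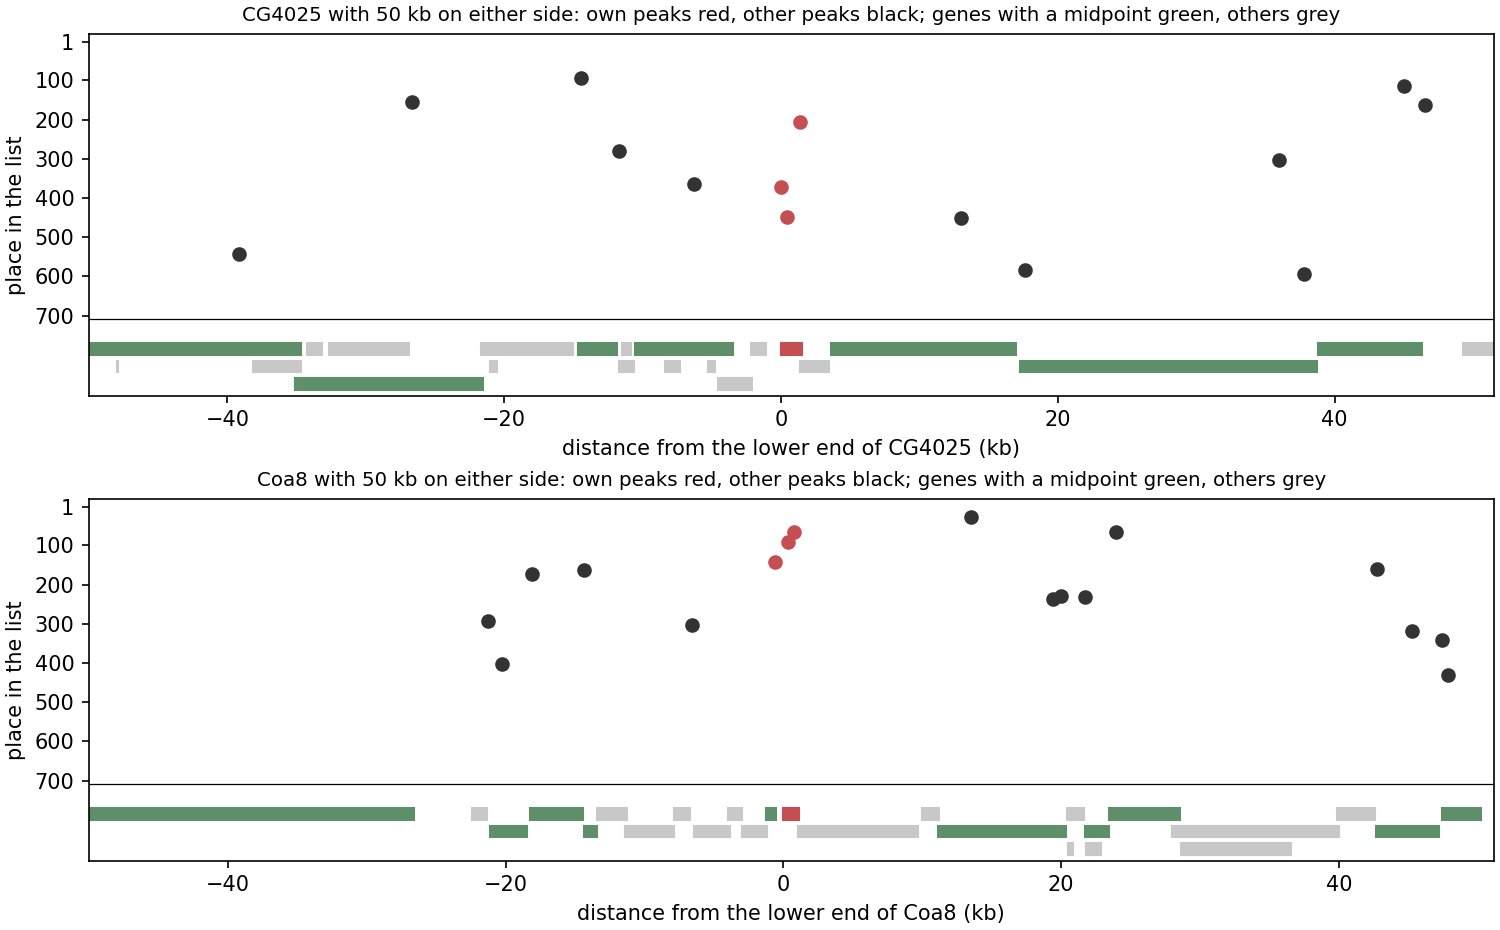
Place in the list of each peak (vertical axis, earliest at the top) against distance in kb from the lower end of CG4025 or Coa8, with 50 kb on either side; own peaks red, other peaks black, genes below in red (the named gene), green (holding a midpoint, in or beyond the window) or grey. The Coa8 peaks (66, 92 and 142) sit above all neighbours but the earliest in arm (27) and, for the later 2, the peak in Edem1 (67), while those of CG4025 (207, 373 and 448) sit among their neighbours.

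Other genes of the pathways to which Coa8 and MSL2 belong were looked up as fixed lists. No such list was made for CG4025. Of 32 names for subunits and assembly factors of complex IV, 20 matched the gene table and 4 of these were on X, Coa8 among them. COX6B, a subunit of complex IV (3799 bp), held 1 midpoint at place 12, earlier than any of Coa8. Coa7, another assembly factor (3092 bp), had none inside and 1 peak 115 bp away at place 408. Cox17, a copper chaperone for complex IV (671 bp), had its nearest midpoint 1776 bp away. With Coa8 counted, 2 of the 4 held a midpoint and 3 of the 4 had 1 inside or within 1 kb, against 15.2% and 30.6% of all X genes. With 4 genes, 1 of them chosen for its peaks, nothing is read from these shares.

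Of 9 genes of dosage compensation, all in the table, 3 were on X. roX1 held 1 midpoint at place 4 and roX2 held 3. mof, which encodes the acetyltransferase of the complex, held none, with its nearest midpoint 442 bp away at place 357. The 6 others were on autosomes, where the list has no peak.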

How the data were processed

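The members and gene lists were chosen with earlier results of these data known. Tools named in the submitters' processing notes are Bowtie2 2.2.9, SAMtools 1.9 and HOMER 4.9, with genome build dm6. Peak calling by the authors, per the file headers, used HOMER findPeaks on 1 anti-MSL2 tag directory (7890306 tags) against 1 control directory, requiring 25 tags, a 10-fold excess over the control and a 4-fold excess over the surrounding 10000 bp. The control requirement removed 8575 of 9758 putative peaks and the local one 474. Which libraries each directory holds is not given in the sources used here. The deposited score is 1 for every peak and was not used. With no value per library, no replicate error, depth per library or test between sera can be given, and no test was run.

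Each peak is 151 bp wide. Positions are 1-based, and a peak belonged to a gene when its midpoint lay inside it or, for membership, within 1000 bp. Gene extents came from the RefSeq table of assembly Release 6, the assembly also called dm6 (2705 genes on X of 17872). A short gene was one of at most 1490 bp, the length of CG4025. Genes named were the members, their adjacent genes, those holding or nearest to a peak within 50 kb, short genes with 3 or more midpoints and the fixed lists. Exceptions are said to have been chosen after their values were seen, which also holds for SLIRP1, anox and the genes of the tight runs. Counts were made in Python 3.11.15 with pandas 2.3.3 and checked on simulated peaks. Promoter sequence was not used here, so the planned motif search was not run.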

Additional observations from a re-analysis of the deposited data

How the results depend on the processing

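Of 20 alternative counts, 12 stayed within 1.5 times the reported value. Only 1 of the 3 peaks of CG4025 remained when the list was restricted to its first 354 peaks, and likewise 1 among the peaks with a number up to the median, while all 3 at Coa8 remained in both. Coa8 had 2 peaks in place of 3 with a margin of 0 or 500 bp, because the peak in CG14818 then falls outside. Neighbouring peaks of CG4025 numbered 5 within 20 kb and 18 within 100 kb. Those of Coa8 numbered 6 within 20 kb. Short X genes with 2 or more peaks numbered 27 with 1000 bp on either side, 5 with an overlap of 1 bp (SLIRP1 and anox were added) and 0 after peaks within 1 kb were merged, since several peaks in a short gene then count as 1. No paired analysis was possible because per-library values were not used here, and for the same reason no library could be left out in turn. The control and local requirements set which peaks are listed, and their part in the counts was not tested.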

Other observations

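The 30 peaks inside short genes had a median place of 415, against 355 for the list. Of the 634 short protein-coding genes, 18 held a midpoint, beside 25 of all 1045 short genes (2.39%), so nothing is read from this count.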
